A study of Mus musculus with 9 samples.

Results

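The collagen chains are the genes whose symbol reads Col, a number, a, and a number, and they were taken by that symbol rule from the annotation of the arrays. Of 18194 genes measured, 42 were collagen genes, read by 82 probe sets. A probe set is a group of short probes that report 1 transcript, and for each gene the brightest one stood for the gene. By the usual classes, 11 of the 42 encode chains of fibrillar collagens, 6 chains of basement membrane collagen, 9 chains of FACIT collagens, which bind to the surface of fibrils, and 16 other chains. The tumours came from 67NR, 66cl4 and 4T1, mouse mammary carcinoma lines of common origin that are known to differ in how far they spread from the mammary gland.

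Each line carried the label suffix CMVLUC. For each of the 3 lines, 1000000 viable cells were injected on the right side into the fourth mammary gland of 3 female BALB/c mice aged 7 to 9 weeks. The primary tumours were taken on day 15, and total RNA of laser-captured tumour areas was read on 1 single-colour Affymetrix array per mouse. The 9 arrays thus compare 3 mice with tumours of each line, and no tumour-free gland was analysed here. The lines are grafts into syngeneic hosts, and the captured areas can hold the host's fibroblasts, vessels and immune cells beside the injected cells. In such bulk tissue, fewer cells of a type and less RNA per cell cannot be told apart.

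Collagens are made of 3 chains wound into a triple helix, and the genes fall into families by the structure that the helix builds. Types I, III and V form the fibrils of connective tissue, mostly from fibroblasts. Type IV forms the sheet-like network of basement membranes under epithelium and around vessels, and type VI forms beaded filaments close to cells and basement membranes. In mammary tumours fibrillar collagen is the main component of the fibrous stroma, and carcinoma cells can also make collagen themselves.

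The values are log2 signals, 1 per probe set and array, as deposited by the authors, with no call of presence. Array medians ran from 5.51 to 5.58, and the brightest of 27 bacterial control probe sets, used here as a mark of background, stood at 4.83 to 5.08. Arrays have no read depth, so that the number of mice per line limits the precision. Of the 42 collagen genes, 26 lay above that background on all 9 arrays and 8 below it on all 9. A filter on dim probe sets kept 13410 genes for testing, among them 28 collagens, 8 fibrillar, 4 of basement membrane, 7 FACIT and 9 other. A gene was called higher or lower when its adjusted p was below 0.05 in limma, which fitted all 9 arrays and adjusted over all genes tested. Each call was also run under 19 alternatives to this setting. These left out each array in turn, changed the filter, scaling, probe set or fit, or added as a covariate either the number in the array's file name or the mean signal of 18 hybridization control probe sets, which are spiked in before hybridization. The labels name separate mice, and the p-values measure the spread between these mice.

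Among the 3 lines, 18 of the 28 tested collagens differed in limma's F-test at an adjusted p below 0.05, beside 56.6% of all genes tested. Counted by order, 8 of these 18 had their lowest mean in 67NR tumours, a middle mean in 66cl4 and their highest in 4T1. Another 5 were lowest in 66cl4 and highest in 4T1, 3 were lowest in 66cl4 and highest in 67NR, 1 was lowest in 4T1 and highest in 66cl4, and 1 was lowest in 67NR and highest in 66cl4. The collagens thus did not differ as 1 block. Chains of types I and III were lowest in 67NR and highest in 4T1, the main chains of type IV were highest in 67NR, and Col6a3 of type VI was lowest in 66cl4.

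**Figure D1:**
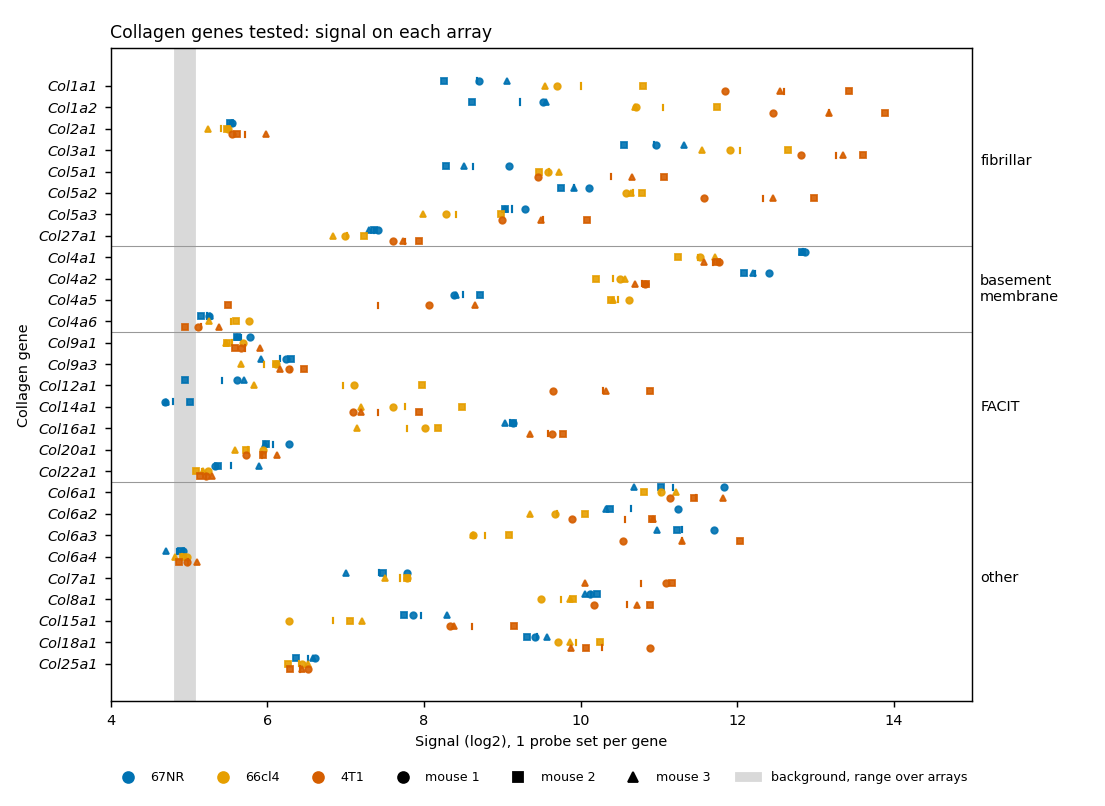
Signal in log2 (horizontal axis) of the 28 tested collagen genes (vertical axis) on each of the 9 arrays, coloured by tumour line, with a marker shape per mouse, short bars for means and background as a shaded band. Col1a1 lay at 8.26 to 9.06 in 67NR, 9.54 to 10.79 in 66cl4 and 11.84 to 13.42 in 4T1, while Col4a1 lay highest in 67NR tumours.

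Type I collagen, the main fibril-forming collagen of most connective tissues, is built from the chains of Col1a1 and Col1a2, which lie on chromosomes 11 and 6. Col1a1 read 8.70, 8.26 and 9.06 in the 3 67NR tumours, 9.70, 10.79 and 9.54 in the 66cl4 tumours and 11.84, 13.42 and 12.54 in the 4T1 tumours. Col1a2 read 9.52, 8.61 and 9.56 in 67NR, 10.71, 11.74 and 10.70 in 66cl4 and 12.46, 13.89 and 13.17 in 4T1. For both genes the 3 lines did not overlap, with every 67NR tumour below every 66cl4 tumour and every 66cl4 tumour below every 4T1 tumour. Between 4T1 and 67NR the difference was 3.93 ± 0.42 (log2 ± SE, n = 3 mice per line), or 15.2-fold, for Col1a1 (limma adjusted p = 7.38e-05). It was 3.95 ± 0.41 for Col1a2 (adjusted p = 5.7e-05), and the shift of Col1a1 minus that of Col1a2 was -0.02 ± 0.15. Between 66cl4 and 67NR the differences were smaller, 1.34 ± 0.42 for Col1a1 (adjusted p = 0.0333) and 1.82 ± 0.41 for Col1a2 (adjusted p = 0.00661). The call for Col1a1 in that comparison was lost without 67NR mouse 1 (adjusted p = 0.0772), 67NR mouse 2 (0.114) or 66cl4 mouse 2 (0.116), and with the array's file number as a covariate (0.073). 4T1 exceeded 66cl4 tumours by 2.59 ± 0.42 for Col1a1 and 2.12 ± 0.41 for Col1a2. There the shift of Col1a1 minus that of Col1a2 was 0.47 ± 0.08, and between 66cl4 and 67NR it was -0.49 ± 0.15. In these 2 comparisons the ratio of both chains on an array did not overlap between the lines. With 3 against 3 mice, an exact permutation p cannot fall below 0.1.

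Type III collagen, which forms thin fibrils with type I, is encoded by Col3a1 on chromosome 1. It read 10.96, 10.55 and 11.32 in 67NR, 11.91, 12.65 and 11.55 in 66cl4 and 12.81, 13.61 and 13.35 in 4T1. The lines again stood in that order without overlap. The difference was 2.31 ± 0.31 between 4T1 and 67NR (4.97-fold, limma adjusted p = 0.000275), 1.09 ± 0.31 between 66cl4 and 67NR (adjusted p = 0.0194) and 1.22 ± 0.31 between 4T1 and 66cl4 (adjusted p = 0.0102). The middle one was not called without 67NR mouse 1 (0.0507), 67NR mouse 2 (0.0761) or 66cl4 mouse 2 (0.0632), or with the file number as a covariate (0.0905), and it was 1.71 on the dimmer of the gene's probe sets.

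The promoter stretches of Col1a2 and Col3a1 are shown because these genes moved together and both have an entry in the RefSeq table, with build GRCm38.p6. Each runs 5′ to 3′ over the 120 bases before the annotated start on the plus strand, chr6:4505498-4505617 for Col1a2 and chr1:45311418-45311537 for Col3a1. Capitals mark CCAAT in the first and TATAAA in the second.
Col1a2: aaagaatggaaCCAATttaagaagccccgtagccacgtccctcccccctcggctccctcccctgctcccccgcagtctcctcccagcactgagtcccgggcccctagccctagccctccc
Col3a1: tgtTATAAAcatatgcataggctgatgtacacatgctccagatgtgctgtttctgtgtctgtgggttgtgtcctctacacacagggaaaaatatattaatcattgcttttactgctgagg
Motifs were searched on both strands in windows of 300 bases, 250 before and 50 after each start, and no motif printed here overlapped another. Windows existed for 33 of the 42 collagen genes, 36 in all, and for comparison the table held 32851 windows of all genes. The letters CCAAT were found in 13 of the 36 collagen windows and in 37.4% of all windows. For the letters TATAAA these were 5 of the 36 and 13.6% of all windows. For GGGCGG, the motif marked in genes shown later, they were 22 of the 36 and 35.7% of all windows. Such matches are descriptions of letters and not of binding sites.

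Type V collagen is incorporated into type I fibrils and limits their width. Its chain genes Col5a1 and Col5a2 followed type I, while the third chain, Col5a3, did not. Col5a2, which lies beside Col3a1 on chromosome 1, read 10.11, 9.75 and 9.91 in 67NR, 10.58, 10.78 and 10.64 in 66cl4 and 11.57, 12.98 and 12.45 in 4T1. It was higher in 4T1 than in 67NR by 2.41 ± 0.29 (5.31-fold, limma adjusted p = 0.000143) and than in 66cl4 by 1.66 ± 0.29 (adjusted p = 0.00131). The 66cl4 tumours exceeded the 67NR tumours by 0.75 ± 0.29 without passing the test (adjusted p = 0.0701), although their values did not overlap. Col5a1 was higher in 4T1 than in 67NR by 1.76 ± 0.36 (adjusted p = 0.00345), a call lost with the file number (0.105) or the hybridization controls (0.0617) as a covariate. Its other differences, 0.97 ± 0.36 for 66cl4 over 67NR and 0.79 ± 0.36 for 4T1 over 66cl4, were not called. The other Col5a1 probe sets, above background on all 9 arrays, gave 1.39 ± 0.27 and 1.26 ± 0.25 for 4T1 over 66cl4. Both were called there (limma adjusted p over all probe sets 0.00429 and 0.00532). For 66cl4 over 67NR they gave 0.55 ± 0.27 and 0.72 ± 0.25 and were not called. Col5a3 had means of 9.12 ± 0.15 (SD, n = 3) in 67NR, 8.42 ± 0.51 in 66cl4 and 9.53 ± 0.54 in 4T1, and only 4T1 over 66cl4 passed the test (1.11 ± 0.29, adjusted p = 0.013). That call was lost when both of its probe sets were averaged, the second of which lay below background on all arrays (0.45, adjusted p = 0.0795), and with the hybridization controls as a covariate (0.0534).

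Of the 6 chains of types I, III and V, 5 were higher in 4T1 than in 67NR, beside 19.4% of all genes tested, with a median difference of 2.36 over the 6. In 66cl4 against 67NR 3 were higher, beside 20.0% of all genes, with a median of 1.03. In 4T1 against 66cl4 5 were higher, beside 17.9% of all genes, with a median of 1.44. The same mice stood at the edges of their line for most of these chains. 4T1 mouse 2 was the highest 4T1 tumour and 4T1 mouse 1 the lowest for all 6, and 67NR mouse 2 was the lowest 67NR tumour for all 6. 66cl4 mouse 2 was the highest of its line for 5 of the 6. The comparisons with 67NR share the same 3 arrays, so their values are given side by side and not as repeats of each other.

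**Figure D2:**
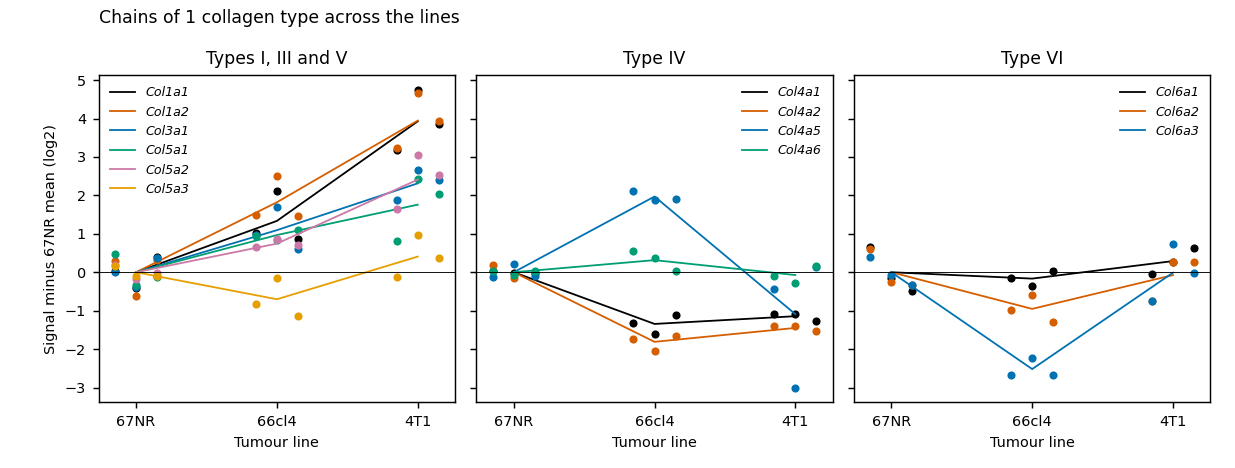
Signal of each array minus the 67NR mean of the gene (log2, vertical axis) by tumour line for chains of types I, III and V, of type IV and of type VI, with points for arrays and lines joining the means. The type I chains climb to differences of 3.93 and 3.95 in 4T1 tumours, Col4a1 and Col4a2 drop in both 66cl4 and 4T1, and Col6a3 drops in 66cl4.

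The remaining fibrillar chains were dim or changed little. Col27a1, a fibrillar chain known from cartilage, was higher in 4T1 than in 66cl4 tumours by 0.74 ± 0.13 (limma adjusted p = 0.00148) and than in 67NR by 0.40 ± 0.13 (adjusted p = 0.035). The second call was lost under 8 of 19 alternatives, among them without each 67NR mouse (adjusted p = 0.0623, 0.0841 and 0.0977), 66cl4 mouse 1 (0.0506), 4T1 mouse 2 (0.123) or 4T1 mouse 3 (0.0571), and it was 1.37 on the gene's dimmer probe set. Col2a1, the main collagen of cartilage, lay at 5.24 to 5.99 and was not called in any comparison. Col11a1, Col11a2 and Col24a1 did not pass the filter, and Col24a1 lay below background on all arrays. Of these, Col11a1 read above background in 2 of the 3 4T1 tumours, with 5.02, 4.92 and 4.39, and in no tumour of the other lines, which read 3.51 to 4.04.

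Type IV collagen showed another order. Col4a1 and Col4a2 encode the chains of the type IV network found in nearly all basement membranes, including those of vessels. Col4a1 read 12.86, 12.83 and 12.82 in 67NR, 11.52, 11.24 and 11.72 in 66cl4 and 11.76, 11.74 and 11.58 in 4T1. Col4a2 read 12.41, 12.09 and 12.20 in 67NR, 10.50, 10.19 and 10.57 in 66cl4 and 10.82, 10.84 and 10.69 in 4T1. For both genes every 67NR tumour lay above every tumour of the other lines. Col4a1 was lower than in 67NR by 1.35 ± 0.13 in 66cl4 (2.54-fold, limma adjusted p = 4.57e-05) and by 1.14 ± 0.13 in 4T1 (2.21-fold, adjusted p = 8.74e-05). Col4a2 was lower by 1.81 ± 0.13 in 66cl4 (3.51-fold, adjusted p = 8.87e-06) and by 1.45 ± 0.13 in 4T1 (2.73-fold, adjusted p = 2.28e-05). These 4 calls held under all 19 alternatives. Between 4T1 and 66cl4 tumours Col4a1 differed by 0.20 ± 0.13 and was not called, while Col4a2 was higher in 4T1 by 0.36 ± 0.13 (adjusted p = 0.0483). That call held under only 5 of 19 alternatives and was lost without 67NR mouse 2 or 3, 66cl4 mouse 1 or 2, or any 4T1 mouse, at adjusted p-values up to 0.173.

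The shared start of Col4a1 and Col4a2 is shown because the genes shifted together. Their RefSeq starts lie 21 bases apart on opposite strands of chromosome 8, so that the first 22 bases of both genes are 1 stretch, chr8:11312805-11312826 in GRCm38.p6, read on the plus strand for Col4a2 and on the minus strand for Col4a1. Capitals mark the motif GGGCGG, which reads CCGCCC on the other strand.
Col4a2: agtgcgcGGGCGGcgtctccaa
Col4a1: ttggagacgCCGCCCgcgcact

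Col4a5 and Col4a6, the X-linked type IV chains of a narrower set of basement membranes, are also arranged head to head, with starts 1343 bases apart. They are shown because Col4a5 was called higher in 66cl4 than in 67NR, a direction that Col4a1 and Col4a2 did not take. Col4a6 was not called on its brightest probe set. The stretches are the 60 bases before each start, chrX:141475359-141475418 on the plus strand for Col4a5 and chrX:141474077-141474136 on the minus strand for Col4a6, with GGGCGG or its complement in capitals.
Col4a5: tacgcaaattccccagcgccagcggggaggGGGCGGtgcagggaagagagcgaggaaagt
Col4a6: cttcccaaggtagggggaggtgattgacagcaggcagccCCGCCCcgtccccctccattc
Col4a5 read 8.38, 8.72 and 8.41 in 67NR, 10.62, 10.39 and 10.41 in 66cl4 and 8.07, 5.50 and 8.65 in 4T1. The 66cl4 tumours lay above all others, and 4T1 mouse 2, the tumour highest in types I, III and V, stood far below the other 4T1 tumours. Col4a5 was higher in 66cl4 than in 67NR by 1.97 ± 0.64 (3.92-fold, limma adjusted p = 0.0356) and lower in 4T1 than in 66cl4 by 3.06 ± 0.64 (8.35-fold, adjusted p = 0.00372). Without 4T1 mouse 2 the first difference was the same with an adjusted p of 5.63e-05, since the lines share 1 estimate of the spread, and the second was -2.11 (5.8e-05). The first was not called without any one of the 67NR or 66cl4 mice, at adjusted p-values from 0.0705 to 0.0921, nor with the file number (0.94, 0.373) or the hybridization controls (1.38, 0.166) as a covariate. The other Col4a5 probe set gave 1.75 ± 0.30 and -2.10 ± 0.30 for the same comparisons, with adjusted p-values over all probe sets of 0.00263 and 0.00069. Col4a5 in 4T1 against 67NR was -1.09 ± 0.64 and not called, and was -0.14 without 4T1 mouse 2. Col4a6 read 5.26, 5.15 and 5.27 in 67NR, 5.77, 5.60 and 5.26 in 66cl4 and 5.12, 4.95 and 5.39 in 4T1, close to background, and was not called. Its differences had the signs of those of Col4a5, 0.31 ± 0.15 for 66cl4 over 67NR and -0.39 ± 0.15 for 4T1 against 66cl4. The latter was called under 7 of 18 alternatives. The second Col4a6 probe set, above background on 4 arrays, gave -0.58 ± 0.18 there (limma adjusted p over all probe sets 0.0452). Col4a3 and Col4a4, the chains of the glomerular basement membrane, lay below background on all 9 arrays, at 3.70 to 4.16.

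Type VI collagen chains parted in 66cl4 tumours. Col6a1, Col6a2 and Col6a3 encode the chains that assemble into 1 type VI molecule, and the first pair are neighbours on chromosome 10. Col6a3 read 11.70, 11.23 and 10.97 in 67NR, 8.63, 9.08 and 8.63 in 66cl4 and 10.54, 12.03 and 11.29 in 4T1. Every 66cl4 tumour lay below every other tumour. The gene was lower in 66cl4 than in 67NR by 2.52 ± 0.33 (5.74-fold, limma adjusted p = 0.000342), and 4T1 exceeded 66cl4 by 2.51 ± 0.33 (5.69-fold, adjusted p = 0.000279). Between 4T1 and 67NR it differed by -0.01 ± 0.33. Both calls held under all 19 alternatives.

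Col6a1 read 11.83, 11.03 and 10.68 in 67NR, 11.02, 10.81 and 11.22 in 66cl4 and 11.14, 11.45 and 11.82 in 4T1. The lines overlapped, and no difference passed the test, the largest being 0.46 ± 0.28 for 4T1 over 66cl4. Col6a2 read 11.24, 10.38 and 10.32 in 67NR, 9.67, 10.06 and 9.35 in 66cl4 and 9.89, 10.91 and 10.92 in 4T1. It was lower in 66cl4 than in 67NR by 0.95 ± 0.33 (limma adjusted p = 0.0472), a call that held under 8 of 19 alternatives and was lost without any one of the 67NR mice, 66cl4 mouse 1 or 3, or 4T1 mouse 2, at adjusted p-values of 0.0504 to 0.162. In 66cl4 against 67NR tumours Col6a3 shifted by 2.35 ± 0.29 more than Col6a1 in the downward direction, written -2.35 in log2, and the ratio of both chains on an array did not overlap between the lines. This pair was chosen after its values were seen, and 3 against 3 mice cannot give an exact permutation p below 0.1. Col6a4 lay near background at 4.71 to 5.11 and was not called, and Col6a5 lay below it on all arrays at 2.67 to 3.19.

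FACIT collagens, which decorate fibrils, held the largest difference measured among the 28 chains. Col12a1, a FACIT chain of tendon, ligament and dense stroma that binds type I fibrils, read 5.62, 4.95 and 5.70 in 67NR, 7.11, 7.98 and 5.83 in 66cl4 and 9.65, 10.89 and 10.33 in 4T1. The lines did not overlap, and 66cl4 mouse 3 lay only just above the 67NR tumours. The 67NR values were above background on all 3 arrays but close to it, which may limit the size of differences from 67NR. 4T1 exceeded 67NR by 4.87 ± 0.50 (29.2-fold, limma adjusted p = 5.26e-05) and 66cl4 by 3.32 ± 0.50 (9.97-fold, adjusted p = 0.000558). A second probe set above background on all arrays gave 2.87 ± 0.33 and 2.61 ± 0.33, and the mean over 4 probe sets, 2 of them below background on all arrays, gave 1.95 and 1.52. Between 66cl4 and 67NR the difference was 1.55 ± 0.50 (adjusted p = 0.0347) on the brightest probe set but 0.26 (adjusted p = 0.613) on the second. It was also not called without any one 67NR mouse or without 66cl4 mouse 1 or 2, at adjusted p-values of 0.0597 to 0.117, nor with the file number (0.182) or the hybridization controls (0.0998) as a covariate.

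Col14a1, a FACIT chain that regulates fibril growth, read 4.69, 5.01 and 4.71 in 67NR, 7.60, 8.49 and 7.20 in 66cl4 and 7.10, 7.94 and 7.20 in 4T1. Only 1 of the 3 67NR tumours was above background, while all tumours of the other lines were. The measured difference from 67NR was 2.96 ± 0.32 in 66cl4 (higher, limma adjusted p = 9.84e-05) and 2.61 ± 0.32 in 4T1 (higher, adjusted p = 0.000158). With most 67NR tumours at background, these sizes are best read as lower bounds. On the dimmer of its probe sets that passed the filter these were 1.31 and 1.17, both called. 4T1 and 66cl4 overlapped and differed by -0.35 ± 0.32, which was not called.

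Col16a1, a FACIT chain expressed by fibroblasts and smooth muscle, read 9.14, 9.14 and 9.03 in 67NR, 8.02, 8.18 and 7.15 in 66cl4 and 9.63, 9.77 and 9.35 in 4T1. The lines did not overlap, with 66cl4 lowest. 66cl4 was lower than 67NR by 1.32 ± 0.24 (limma adjusted p = 0.00191) and 4T1 higher than 66cl4 by 1.80 ± 0.24 (3.49-fold, adjusted p = 0.000254), while 4T1 over 67NR was 0.48 ± 0.24 and not called. Col9a1, Col9a3, Col20a1 and Col22a1 were tested and not called, with differences between -0.36 and 0.34. Col9a2 and Col19a1 lay below background on all arrays.

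Of the other chains, Col7a1 stood out in 4T1 tumours. It encodes type VII collagen, the anchoring fibril that ties the basement membrane of skin and other stratified epithelia to the connective tissue. Col7a1 read 7.79, 7.48 and 7.01 in 67NR, 7.79, 7.79 and 7.50 in 66cl4 and 11.09, 11.17 and 10.05 in 4T1. The 67NR and 66cl4 tumours overlapped, and all 4T1 tumours lay above both. 4T1 exceeded 67NR by 3.35 ± 0.29 (10.2-fold, limma adjusted p = 1.91e-05) and 66cl4 by 3.08 ± 0.29 (8.46-fold, adjusted p = 3.24e-05), and both calls held under all 19 alternatives. 66cl4 over 67NR was 0.27 ± 0.29. The 100 bases before its RefSeq start, chr9:108953486-108953585 on the plus strand, are shown because this gene had the smallest adjusted p of the family in 4T1 against 67NR, with GGGCGG in capitals.
Col7a1: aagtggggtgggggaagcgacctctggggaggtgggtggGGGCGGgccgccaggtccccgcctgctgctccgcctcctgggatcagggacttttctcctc

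Col15a1 and Col18a1 encode the related multiplexin collagens of basement membrane zones. Col15a1 read 7.86, 7.75 and 8.29 in 67NR, 6.28, 7.06 and 7.21 in 66cl4 and 8.33, 9.15 and 8.38 in 4T1, with no overlap and 66cl4 lowest. It was lower in 66cl4 than in 67NR by 1.12 ± 0.29 (limma adjusted p = 0.0128) and higher in 4T1 than in 66cl4 by 1.77 ± 0.29 (adjusted p = 0.000865). The first was not called without 67NR mouse 3 (0.0518) or with the file number as a covariate (-0.48, adjusted p = 0.184), and was -0.69 with the hybridization controls. Col18a1, the precursor of endostatin, was higher in 4T1 than in 67NR by 0.84 ± 0.24 (adjusted p = 0.0196). That was lost on its dimmer probe set (0.46, 0.136), without 67NR mouse 1 (0.0526) or 67NR mouse 2 (0.0659), and with the file number (1.29, 0.0536) or the hybridization controls (0.77, 0.275) as a covariate, and was 0.54 without 4T1 mouse 1.

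Col8a1, a short-chain network collagen of vessel walls and other tissues, was higher in 4T1 than in 66cl4 by 0.84 ± 0.18 (limma adjusted p = 0.00502), with means of 10.13 ± 0.07 (SD, n = 3) in 67NR, 9.75 ± 0.23 in 66cl4 and 10.59 ± 0.37 in 4T1. Col25a1, a transmembrane collagen, lay at 6.26 to 6.61 and was not called. Col8a2, Col10a1, Col13a1, Col17a1, Col23a1 and Col26a1 did not pass the filter. Col8a2 and Col26a1 lay below background on all arrays, and Col10a1 and Col13a1 lay near it at 4.60 to 5.14 and 4.47 to 5.30. Col23a1 read 5.62 in 4T1 mouse 2 and at most 4.75 elsewhere. Col17a1, the hemidesmosome collagen of basal epithelium, was above background in 1 4T1 tumour, at 4.96. Col6a6, Col21a1 and Col28a1 were not analysed here.

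**Figure D3:**
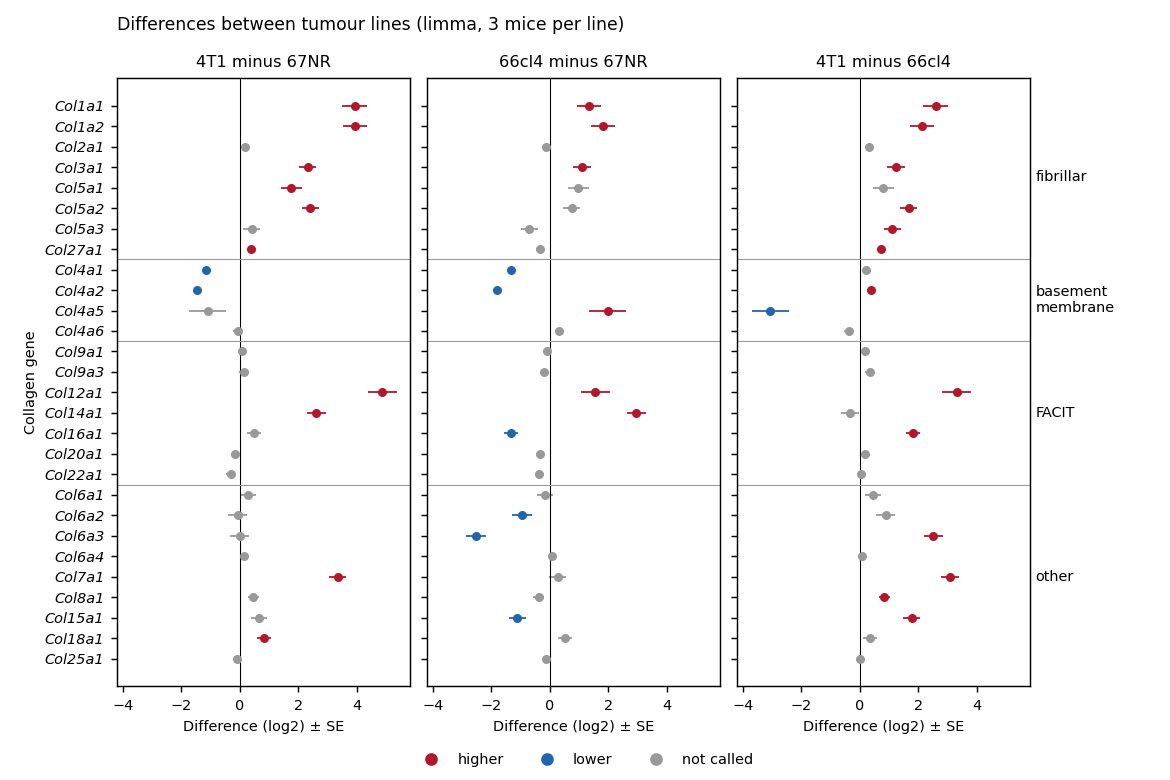
Difference in log2 (horizontal axis, points, with bars of ± 1 SE) for the 28 tested collagens, grouped by class, in the 3 comparisons of tumour lines, coloured by limma call. The Col12a1 difference of 4.87 lies farthest to the right in 4T1 minus 67NR, and the only collagen called lower in 4T1 than in 66cl4 is Col4a5.

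Counted over the family, 10 of the 28 tested collagens were higher and 2 lower in 4T1 than in 67NR tumours, 42.9% in all, beside 39.9% of all genes tested that were called, 19.4% higher and 20.5% lower. The share of called genes was near that of all genes, and the split between higher and lower was not. The median difference was 0.34, against -0.03 over all genes tested. Of the fibrillar chains 6 of 8 were higher and the other 2 were not called. Of the type IV chains 2 of 4 were lower and the other 2 were not called. FACIT chains gave 2 higher of 7 and the other chains 2 higher of 9, with the rest not called. For 15 of the 28 the values of both lines did not overlap, beside 49.7% of all genes.

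In 66cl4 against 67NR tumours 6 collagens were higher and 6 lower, beside 36.1% of all genes called, 20.0% higher and 16.0% lower. The median was -0.13, against 0.01 over all genes. The higher ones were Col1a1, Col1a2, Col3a1, Col4a5, Col12a1 and Col14a1, and the lower ones Col4a1, Col4a2, Col6a2, Col6a3, Col15a1 and Col16a1. The count of higher chains was the least stable of the family. It was 2 without 67NR mouse 2, 2 without 66cl4 mouse 2, 3 without 67NR mouse 1, 9 without 4T1 mouse 1 and 9 when only both lines were fitted, and 2 with the file number as a covariate. Values did not overlap for 21 of the 28 chains, beside 52.5% of all genes.

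In 4T1 against 66cl4 tumours 13 collagens were higher and 1, Col4a5, lower, beside 41.3% of all genes called, 17.9% higher and 23.4% lower. The median was 0.60, against -0.03 over all genes. By class, 6 of 8 fibrillar chains, 1 of 4 type IV chains, 2 of 7 FACIT chains and 4 of 9 others were higher. Values did not overlap for 16 of the 28, beside 50.9% of all genes. Of the calls, 12 of 14 held under all 19 alternatives, as did 9 of 12 in 4T1 against 67NR and 6 of 12 in 66cl4 against 67NR. The 6 that held in the last comparison were Col1a2, Col4a1, Col4a2, Col6a3, Col14a1 and Col16a1.

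Of the 42 collagens, 27 had several probe sets. Among genes called in 4T1 against 67NR, 10 of their other probe sets lay above background on 6 or more arrays, all 10 had the same sign as the brightest one, and 9 were called, with Col18a1 the exception. In 66cl4 against 67NR 7 of 7 had the same sign and 6 were called, with Col12a1 the exception. In 4T1 against 66cl4 9 of 9 had the same sign and 8 were called, with Col3a1 the exception (1.34 ± 0.44, limma adjusted p = 0.0573 over all 45101 probe sets). These counts cover only genes called on their brightest probe set. Where that one was not called, others could differ. The second Col18a1 probe set gave 0.74 ± 0.21 in 66cl4 against 67NR (adjusted p = 0.0349) and -0.28 ± 0.21 in 4T1 against 66cl4. The second Col6a2 probe set gave 1.04 ± 0.26 in 4T1 against 66cl4 (adjusted p = 0.0174).

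**Figure D4:**
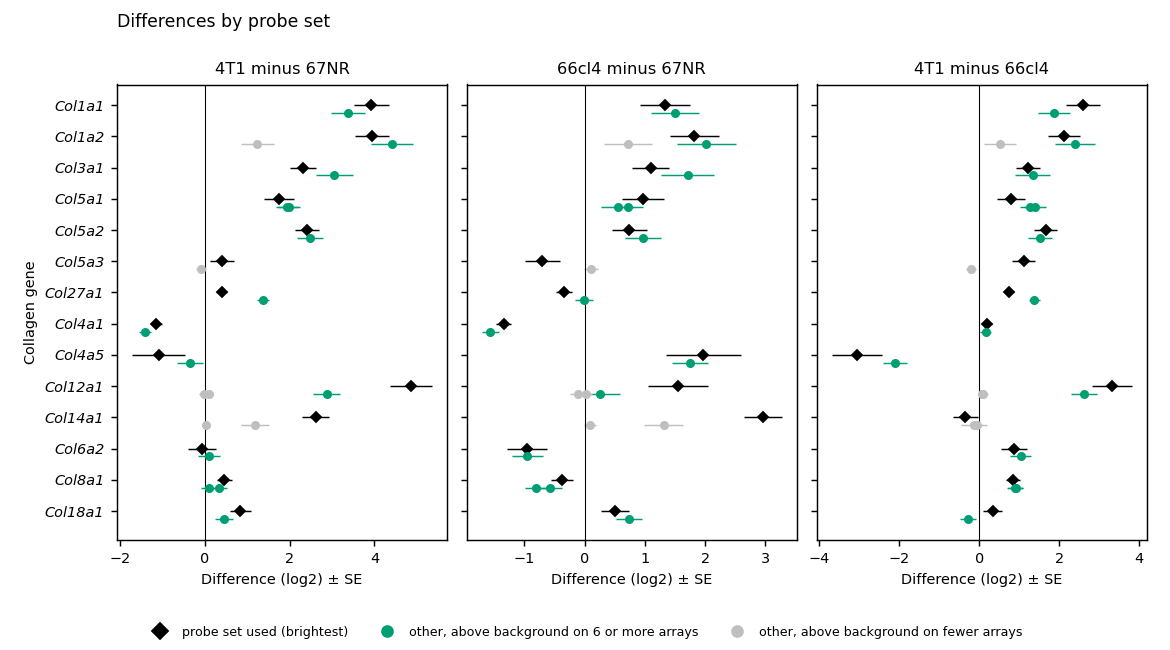
Difference in log2 (horizontal axis, with bars of ± 1 SE) by probe set for called collagens with several probe sets, with the brightest probe set as diamonds, others above background on 6 or more arrays in green and dimmer ones in grey. Most green points lie near their diamond, and Col12a1 is 4.87 on the brightest and 2.87 on the second in 4T1 minus 67NR.

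The enzymes that fold collagen were also read. The counts of this and the following lists stand beside the shares of all genes tested given above, 19.4% higher and 20.5% lower in 4T1 than in 67NR, 20.0% and 16.0% in 66cl4 than in 67NR, and 17.9% and 23.4% in 4T1 than in 66cl4. Of 18 tested genes of collagen folding and modification, 8 were higher and 1 lower in 4T1 than in 67NR, 4 higher and 3 lower in 66cl4 than in 67NR, and 7 higher and 2 lower in 4T1 than in 66cl4. The median differences were 0.32, 0.14 and 0.26, and the shares called in 66cl4 against 67NR were near those of all genes. Serpinh1, the collagen chaperone of the endoplasmic reticulum, had means of 10.80 in 67NR, 8.73 in 66cl4 and 11.10 in 4T1. It was lower in 66cl4 than in 67NR by 2.07 ± 0.25 and higher in 4T1 than in 66cl4 by 2.37 ± 0.25. Its mean was lowest in 66cl4, as for several collagens, Col6a3, Col15a1 and Col16a1 among them. Col1a1, Col1a2 and Col3a1 were instead higher in 66cl4 than in 67NR. P4ha2, a subunit of the prolyl 4-hydroxylase that stabilises the helix, was higher in 66cl4 than in 67NR by 1.00 ± 0.28 and in 4T1 than in 67NR by 2.25 ± 0.28. Crtap, a part of the prolyl 3-hydroxylation complex, was higher in both, by 1.33 ± 0.18 and 1.89 ± 0.18.

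Of 8 tested genes of procollagen processing and crosslinking, 4 were higher and 2 lower in each of the 3 comparisons. Bmp1, which trims the C-terminal propeptide of fibrillar procollagens, was higher in 4T1 than in 67NR by 2.47 ± 0.20 and than in 66cl4 by 1.88 ± 0.20. Lox, which starts crosslinks between collagen molecules, had means of 5.58, 6.27 and 10.05 in 67NR, 66cl4 and 4T1, and was higher in 4T1 than in 67NR by 4.47 ± 0.58. Pcolce, an enhancer of Bmp1, went the other way between 4T1 and 66cl4, lower in 4T1 by 1.60 ± 0.11 and higher in 66cl4 than in 67NR by 1.08 ± 0.11.

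Proteins that bind collagen, receptors and proteases were mixed. Of 16 collagen-binding matrix genes, 7 were higher and 5 lower in 4T1 than in 67NR, 4 and 4 in 66cl4 than in 67NR, and 5 and 4 in 4T1 than in 66cl4. Lum, a proteoglycan of collagen fibrils, was higher than in 67NR by 3.10 ± 0.46 in 66cl4 and by 3.63 ± 0.46 in 4T1. Nid1, which links laminin to type IV collagen, was lower in 66cl4 than in 67NR by 2.19 ± 0.19. Of 11 collagen receptor genes, 3 were higher and 4 lower, 2 and 5, and 5 and 3 in the same order of comparisons. Ddr2, a receptor kinase for fibrillar collagen, was lower in 4T1 than in 67NR by 1.75 ± 0.15, and Mrc2, the uptake receptor for collagen, by 2.62 ± 0.37. Itga10, an integrin subunit that binds collagen, was higher in 66cl4 than in 67NR by 4.73 ± 0.27. Its 67NR values, 5.32, 4.66 and 5.39, lay near background, above it on 2 of 3 arrays, so this size may be a lower bound.

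Of 9 tested collagen-degrading protease genes, 5 were higher and 2 lower in 4T1 than in 67NR, 1 was higher and 8 were not called in 66cl4 against 67NR, and 5 were higher and 2 lower in 4T1 than in 66cl4. Mmp13, a collagenase, had means of 6.59 in 67NR and 11.36 in 4T1 tumours and was higher in 4T1 than in 66cl4 by 6.37 ± 0.58. Its 66cl4 values, 5.03, 5.88 and 4.07, lay above background on 2 of 3 arrays, so this size may be a lower bound. Ctsk, a cysteine protease that cuts type I collagen, was higher than in 67NR by 1.82 ± 0.55 in 66cl4 and by 2.73 ± 0.55 in 4T1. Genes that build and genes that degrade fibrillar collagen were thus both among those higher in 4T1 tumours.

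Markers of the cell types that the captured areas could hold moved with the lines, and their part in the collagen differences was not tested. Of 18 fibroblast markers, 7 were higher and 5 lower in 4T1 than in 67NR, 5 and 4 in 66cl4 than in 67NR, and 5 and 5 in 4T1 than in 66cl4. The log2 of their summed signal was 13.12 to 13.40 in 67NR, 13.56 to 13.91 in 66cl4 and 13.58 to 14.42 in 4T1. As for types I, III and V, 4T1 mouse 2 was highest, and 4T1 mouse 1 and 67NR mouse 2 were lowest of their line. In 66cl4 the order differed, since mouse 2 had the lowest sum (13.56) but was highest for 5 of the 6 chains. The pericyte and smooth muscle sum was also highest in 4T1 mouse 2 (12.73) and lowest in 4T1 mouse 1 (11.71). Gsn, the brightest of the fibroblast list, differed by -0.33 to 0.33 and was not called, whereas Fbln2 and Lum were higher in 4T1 than in 67NR by 2.64 ± 0.32 and 3.63 ± 0.46. Ogn was at least 7.00-fold lower in 4T1, where it was not above background on any array and the background level was taken in its place (measured means 7.78 in 67NR and 4.78 in 4T1, limma adjusted p = 7.42e-05). All 18 fibroblast markers were above background on at least 1 array.

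Of 14 endothelial markers, 11 were lower and 1 higher in 4T1 than in 67NR, and 13 lower and 1 higher in 66cl4 than in 67NR. In 4T1 against 66cl4, 8 were higher and the other 6 were not called. Their summed signal was 12.79 to 13.32, 10.97 to 11.28 and 11.71 to 11.94 in 67NR, 66cl4 and 4T1, with 67NR highest as for Col4a1 and Col4a2. Cdh5, the cadherin of endothelial junctions, was lower than in 67NR by 2.26 ± 0.14 in 66cl4 and by 2.11 ± 0.14 in 4T1. Eng, the brightest endothelial marker, was lower in 66cl4 than in 67NR by 1.09 ± 0.11. In 4T1 against 67NR it differed by 0.04 ± 0.11 and was not called. Of 12 pericyte and smooth muscle markers, 9 were lower and 2 higher in 4T1 than in 67NR, 9 were lower and 3 not called in 66cl4 against 67NR, and 3 were higher and 1 lower in 4T1 than in 66cl4. Their summed signal was 13.34 to 13.42, 11.70 to 12.11 and 11.71 to 12.73, and Rgs5, a pericyte gene, was lower than in 67NR by 2.43 ± 0.37 in 66cl4 and by 3.52 ± 0.37 in 4T1.

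Of 13 tested epithelial and mammary markers, 12 were higher in 4T1 than in 67NR, 12 in 4T1 than in 66cl4 and 2 in 66cl4 than in 67NR, and the rest were not called. Their summed signal was 9.47 to 9.62 in 67NR, 12.97 to 13.29 in 66cl4 and 14.95 to 15.22 in 4T1. The middle place of 66cl4 rested mostly on Krt8, which alone read 13.08, 13.17 and 12.78 there. The sums on those arrays were 13.23, 13.29 and 12.97. By order of means, 8 of the 18 collagens called in the F-test shared the order of the sums. Among these 8, only Col1a1, Col1a2, Col3a1 and Col12a1 were called in all 3 comparisons. The fibroblast sum was also lowest in 67NR, with 66cl4 and 4T1 overlapping at 13.56 to 13.91 and 13.58 to 14.42. Cdh1, the epithelial cadherin, lay below background on every 67NR and 66cl4 array, with means of 4.09 and 4.27, against 10.93 in 4T1. Krt8, the brightest marker, had means of 6.74, 13.01 and 13.48, and Elf5, a mammary luminal factor, lay below background on all 9 arrays. Of the 14 measured markers, 6 were above background on every 67NR array, among them Epcam, Gata3 and Krt8, and 5 on none. In 66cl4 tumours 7 were above it on every array and 5 on none, and in 4T1 tumours these were 13 and 1. Of 10 macrophage markers, 9 were lower in 4T1 than in each of the other lines with 1 not called, and 3 were higher and 1 lower in 66cl4 than in 67NR, with summed signals of 15.46 to 15.61, 15.65 to 15.98 and 14.38 to 14.63 in 67NR, 66cl4 and 4T1.

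Of the 2 tested adipocyte markers, Fabp4 was lower than in 67NR by 2.73 ± 0.37 in 66cl4 and by 3.71 ± 0.37 in 4T1. The other, Retn, had means of 6.57, 6.76 and 6.51 in 67NR, 66cl4 and 4T1 and was not called. Of the 5 adipocyte markers measured, 3 were above background on no 67NR array. The 5 tested skeletal muscle markers were not called in limma, with summed signals of 7.97 to 8.15, 7.97 to 9.16 and 8.02 to 8.43, the highest in 66cl4 mouse 2. Of 4 tested cartilage and bone markers, 2 were lower in 4T1 than in 67NR, 1 was higher and 1 lower in 66cl4 than in 67NR, and 1 was lower in 4T1 than in 66cl4, and 4 of the 8 measured lay below background on all arrays.

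**Figure D5:**
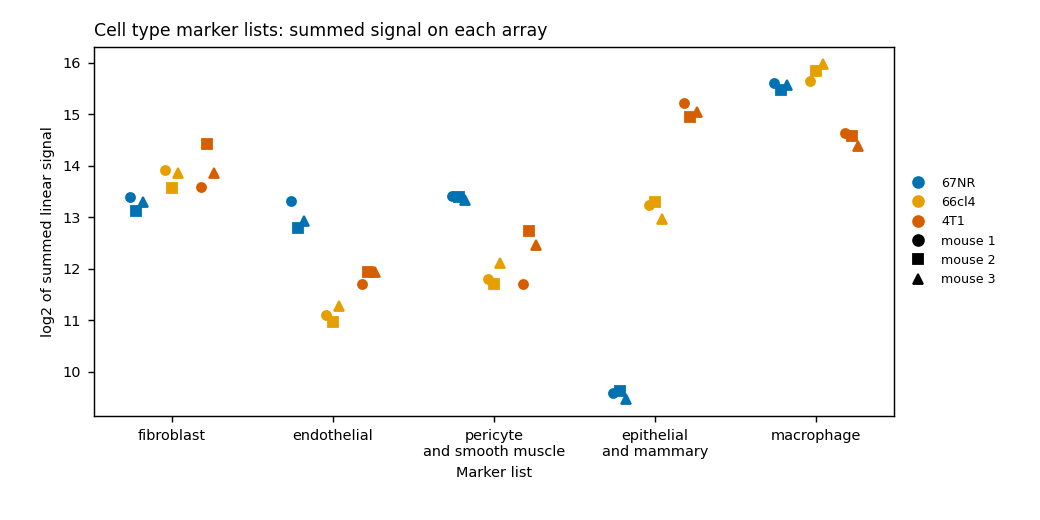
Log2 of the summed linear signal of each cell type marker list (vertical axis) on each array, coloured by tumour line. Endothelial and pericyte lists lie highest in 67NR tumours, at 12.79 to 13.32 and 13.34 to 13.42, and the epithelial list highest in 4T1, at 14.95 to 15.22.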

How the data were processed

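The deposited table of the authors holds 45101 probe sets by 9 arrays in log2 units, a scale inferred from its range of 2.42 to 14.80. For the steps from scanner to table, probe summary and normalisation included, the tools are not given in the sources used here. Arrays were mapped to the lines by their labels. For 2 of the 67NR mice, the day and cell number come from the series' design text. Probe sets were named through the platform annotation, with symbols checked against RefSeq: 34958 name 1 gene, 932 several and 9211 none, and no collagen probe set named several. Each gene took its brightest probe set. A gene was tested if its signal exceeded the array's 40th percentile on at least 3 arrays. The 75th percentiles differed by 0.15, so the deposited values were used without scaling. Line means were fitted by lmFit and tested two-sided by eBayes, both from limma 3.58.1 under R 4.3.3, with Benjamini-Hochberg adjustment over 13410 genes. The fitting script was first tested on simulated data. Tables were made in Python 3.11.15 with pandas 2.3.3 and figures with matplotlib 3.10.9.

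Values on every array are given for types I, III, IV and VI and for the up to 6 highest and 6 lowest called collagens per comparison. Of types IV and VI, Col4a3, Col4a4, Col6a4 and Col6a5, at or near background, are given only as ranges. Collagen classes, 5 lists of collagen-related genes and 8 cell type marker lists were written by hand. For most lists some of the genes with the smallest p are named. The brightest marker is named for the fibroblast, endothelial, epithelial and adipocyte lists. The members and lists were chosen with earlier results of these data known. No p was computed over a list.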

Additional observations from a re-analysis of the deposited data

How the results depend on the processing

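No called difference of a collagen changed sign under the 19 alternatives. The number of collagens higher in 66cl4 than in 67NR was 6, and 2 with the file number as a covariate. Leaving out single mice gave 2 to 9. The number lower in 4T1 than in 66cl4 was 1, Col4a5, and 2 with quantile normalization, the mean of probe sets, the dimmest probe set, the file number or the hybridization controls, and 1 to 2 with single mice left out. Leaving out single mice gave 8 to 11 higher and 2 to 3 lower in 4T1 than in 67NR, 4 to 8 lower in 66cl4 than in 67NR, 12 to 14 higher in 4T1 than in 66cl4, and 17 to 19 differing among the lines. The labels' numerals I to III are shared by the lines, but same-numbered arrays correlated at only -0.12 to 0.16 in their deviations from the line means, so the numerals were not taken as pairs. With the numeral as a replicate block the counts were 11 higher and 2 lower for 4T1 against 67NR, 6 and 5 for 66cl4 against 67NR, 13 and 1 for 4T1 against 66cl4, and 17 among the lines. Causes of these changes were not tested. File numbers and lines overlap only in part, since the 67NR arrays hold the highest numbers, so line and file number cannot be fully told apart. The hybridization control means also differed by line, at 10.87 to 11.47 in 67NR, 10.64 to 11.10 in 66cl4 and 10.30 to 10.72 in 4T1. Line and these controls cannot be fully told apart either, so a call lost with either covariate may reflect this link between line and covariate. With 3 mice per line, small differences near background could not be resolved.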
